A study of Homo sapiens with 28 samples.

Results

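The 35 genes described here encode the sensors and transcription factors of the unfolded protein response, the chaperones, oxidoreductases and degradation factors of the endoplasmic reticulum (ER), and related secretory-pathway regulators. They were taken by gene symbol from a count table of 61815 human genes, each symbol was found once, and all 35 had enough counts to be tested in every comparison. The cells were LNCaP, a human prostate cancer line that responds to androgen, and all 8 groups had first spent 72 h under androgen deprivation in serum whose steroids had been removed with charcoal. In the 24 h experiment, 3 libraries each came from cells given vehicle (0.1% DMSO), Senexin B at 1 µM, the synthetic androgen R1881 at 0.1 nM, or R1881 with Senexin B. The dose of Senexin B is that of the sample labels, and the study's text gives a different one. In the 72 h experiment, 4 libraries each came from cells given vehicle, SNX631 at 500 nM, R1881 at 1 nM, or R1881 with SNX631. Senexin B and SNX631 inhibit CDK8 and CDK19, the kinases of the Mediator kinase module. Time, androgen dose, inhibitor and experiment differ together between the experiments and cannot be told apart, and a single cell line was used.

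Proteins that enter the ER are folded by chaperones such as BiP and GRP94, have disulfide bonds formed by protein disulfide isomerases, and are sent for degradation if they fail to fold. Unfolded protein in the ER is sensed by 3 membrane proteins. IRE1 (encoded by ERN1) splices the XBP1 mRNA so that it encodes an active factor, ATF6 is cut in the Golgi to release a factor, and PERK (EIF2AK3) phosphorylates eIF2α, which lowers general translation and favors translation of ATF4 and then DDIT3 (CHOP). Prostate luminal cells are secretory, and androgen is known to drive their secretory program. The measurements here are of total mRNA per gene: they do not see XBP1 splicing, ATF6 cleavage or protein. Several targets answer to more than 1 sensor, so the assignment of genes to arms below is the textbook one.

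Promoter sequences of 33 of the 35 genes were available in the RefSeq windows (GRCh38.p14, 250 bases before to 50 after the annotated start), and KDELR2 and PDIA3 had no entry. The windows are shown because HSPA5, HSP90B1, CALR and XBP1, whose inhibitor responses are described below, carry the same element. Whether the element had a part in those responses was not tested. The ER stress element, CCAAT and CCACG separated by 9 bases, which is bound by NF-Y together with ATF6 or XBP1, was found on either strand in 8 of 33 genes (24.2%), against 25 of all 27305 symbols with a window (0.0916%). These 8 genes were HSPA5, HSP90B1, CALR, CANX, PDIA6, CRELD2, ERO1B and XBP1. The 35 genes were chosen for known roles in ER folding and its stress response. Shares above those of all symbols, for this and the stress elements below, are therefore no finding of these data. The matches are given 5′ to 3′ on the strand of the gene, with the element in capitals and 5 bases on each side.
HSPA5, chr9:125241386-125241414, minus strand: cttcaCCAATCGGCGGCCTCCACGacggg
XBP1, chr22:28800598-28800626, minus strand: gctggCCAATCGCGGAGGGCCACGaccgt
HSP90B1, chr12:103930211-103930239, plus strand: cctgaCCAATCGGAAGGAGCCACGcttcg
HSP90B1, chr12:103930316-103930344, plus strand, element reversed: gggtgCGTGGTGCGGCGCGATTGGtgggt
CALR, chr19:12938379-12938407, plus strand, element reversed: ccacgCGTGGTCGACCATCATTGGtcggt
The elements of HSPA5 and XBP1 begin 66 and 52 bases before the start. HSPA5 and XBP1 moved in opposite directions with both inhibitors, as described below.

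A shorter form, ER stress element II (ATTGG and CCACG separated by 1 base), was found in HERPUD1, HYOU1 and SDF2L1, 9.09% of the 33 genes against 0.0696% of all symbols. The core of the UPR element, TGACGTGG, was found in HYOU1 and KDELR3 (6.06% against 0.927%), and in HYOU1 it overlaps an ER stress element II.
HYOU1, chr11:119057375-119057395, minus strand, ER stress element II reversed: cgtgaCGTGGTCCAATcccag
HERPUD1, chr16:56932020-56932040, plus strand, ER stress element II: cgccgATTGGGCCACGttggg
The composite element bound by ATF4, TGATGNAA, was present in CREB3L2 and HERPUD1 (6.06% against 4.46%). A full androgen response element (AGAACA and TGTTCT separated by 3 bases) was in none of the 33 windows and in 1 symbol of all. These are matches of letters, not measured binding.

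Total counts per library ran from 9846595 to 33809419, the highest in vehicle replicate 3 at 24 h and the others up to 15248512. The lowest count of any of the 35 genes in any library was 47. Levels are given as counts-per-million (CPM) after TMM scaling within each experiment. A gene is called where edgeR gave a false discovery rate (FDR) under 0.01 over all genes tested and a fold change over 1.5, and the wider set that met the FDR limit alone is given beside it, since most changes here were smaller than 1.5-fold. The androgen target KLK3 rose 70.9-fold at 24 h and 95.1-fold at 72 h with R1881 (edgeR FDR 4.7e-33 and 5.3e-39). The luminal markers HOXB13, FOLH1, KRT8, KRT18 and EPCAM were at 159 CPM or more in every library. The basal markers KRT14 and TP63 and the stromal, endothelial and leukocyte markers DCN, PECAM1 and PTPRC reached at most 0.44 CPM. KRT5 had a value of at most 0.5 in any library, which was rounded to 0 counts. In the library with the lowest total, 3 counts make 0.305 CPM. COL1A1 lay between 7.36 and 31.4 CPM. In GENCODE 29, 20 of the 35 genes overlap a gene on the opposite strand and 13 one on their own strand, and whether the counting used strand is not given in the sources used here.

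Per kilobase of exon, the 35 genes spanned a wide range of levels in vehicle cells. The calcium-binding lectin chaperone CALR was highest at 378 ± 6.1 CPM per kb (SD, n = 3) at 24 h and 467 ± 7.3 (n = 4) at 72 h. HSPA5 (BiP) at 159 ± 5.9, HSP90B1 (GRP94) at 153 ± 2.4 and PDIA3 at 151 ± 2.2 CPM per kb followed at 24 h and did not differ beyond their spread. The lowest were ERO1A, ERN1 and ERO1B, at 2.42 ± 0.15, 2.39 ± 0.21 and 1.79 ± 0.21 CPM per kb. The factor ATF4, at 97.0 CPM per kb, also stood among the higher genes, and ERO1A and ERO1B, among the lowest, encode ER oxidases. In vehicle at 72 h, HSP90B1 at 275 ± 7.8 and HSPA5 at 269 ± 4.9 CPM per kb stood above PDIA3 at 180 ± 1.6 (n = 4).

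R1881 raised much of this gene group in both experiments. At 24 h, R1881 against vehicle called 6 genes higher and 1 lower, where 9.81% of the 15948 genes tested were called higher and 9.19% lower. By the FDR limit alone, 22 of 35 were higher and 2 lower, against 26.3% and 22.1% of all genes, and 1 was lower when R1881 replicate 2 was left out. At 72 h, 10 genes were called higher and 1 lower (9.7% and 10.1% of 16074 genes), and 28 met the FDR limit as higher and 2 as lower (27.6% and 24.6%). The median log2 fold change of the 35 genes was 0.27 at 24 h and 0.32 at 72 h, beside -0.02 and -0.01 over all genes tested. Scaling by library totals alone left PDIA3 lower at 72 h (log2 -0.04 instead of 0.07). In bulk RNA, fewer cells that express a gene and less of its RNA per cell cannot be told apart.

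Of the 35, 21 met the FDR limit as higher in both experiments, 1 as lower in both, and 0 went in opposite directions past that limit. The shares of all genes that did so in both experiments were not computed, so these joint counts have no background beside them. The 7 genes called in the same direction both times were ERN1, DNAJB9, PDIA5, EDEM3, CREB3L4 and KDELR2, which rose, and DDIT3, which fell. HERPUD1, SDF2L1, ERO1A and CREB3L2 were called higher at 72 h, and at 24 h they met the FDR limit with log2 fold changes of 0.57, 0.52, 0.47 and 0.48. R1881 was also compared in cells given inhibitor, in libraries separate from those above. With Senexin B present, 8 genes were called higher and 1 lower (9.97% and 8.9% of all genes), and 23 and 4 met the FDR limit (26.3% and 21.2%), with 2 lower when Senexin B replicate 3 or replicate 3 of R1881 with Senexin B was left out. With SNX631 present, 12 were called higher and 1 lower (10.1% and 12%), and 28 and 2 met the FDR limit (29.8% and 27.5%), with HSPA5 and HYOU1 at log2 -0.01 and -0.02 instead of 0.10 and 0.09 under scaling by library totals alone.

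**Figure D1:**
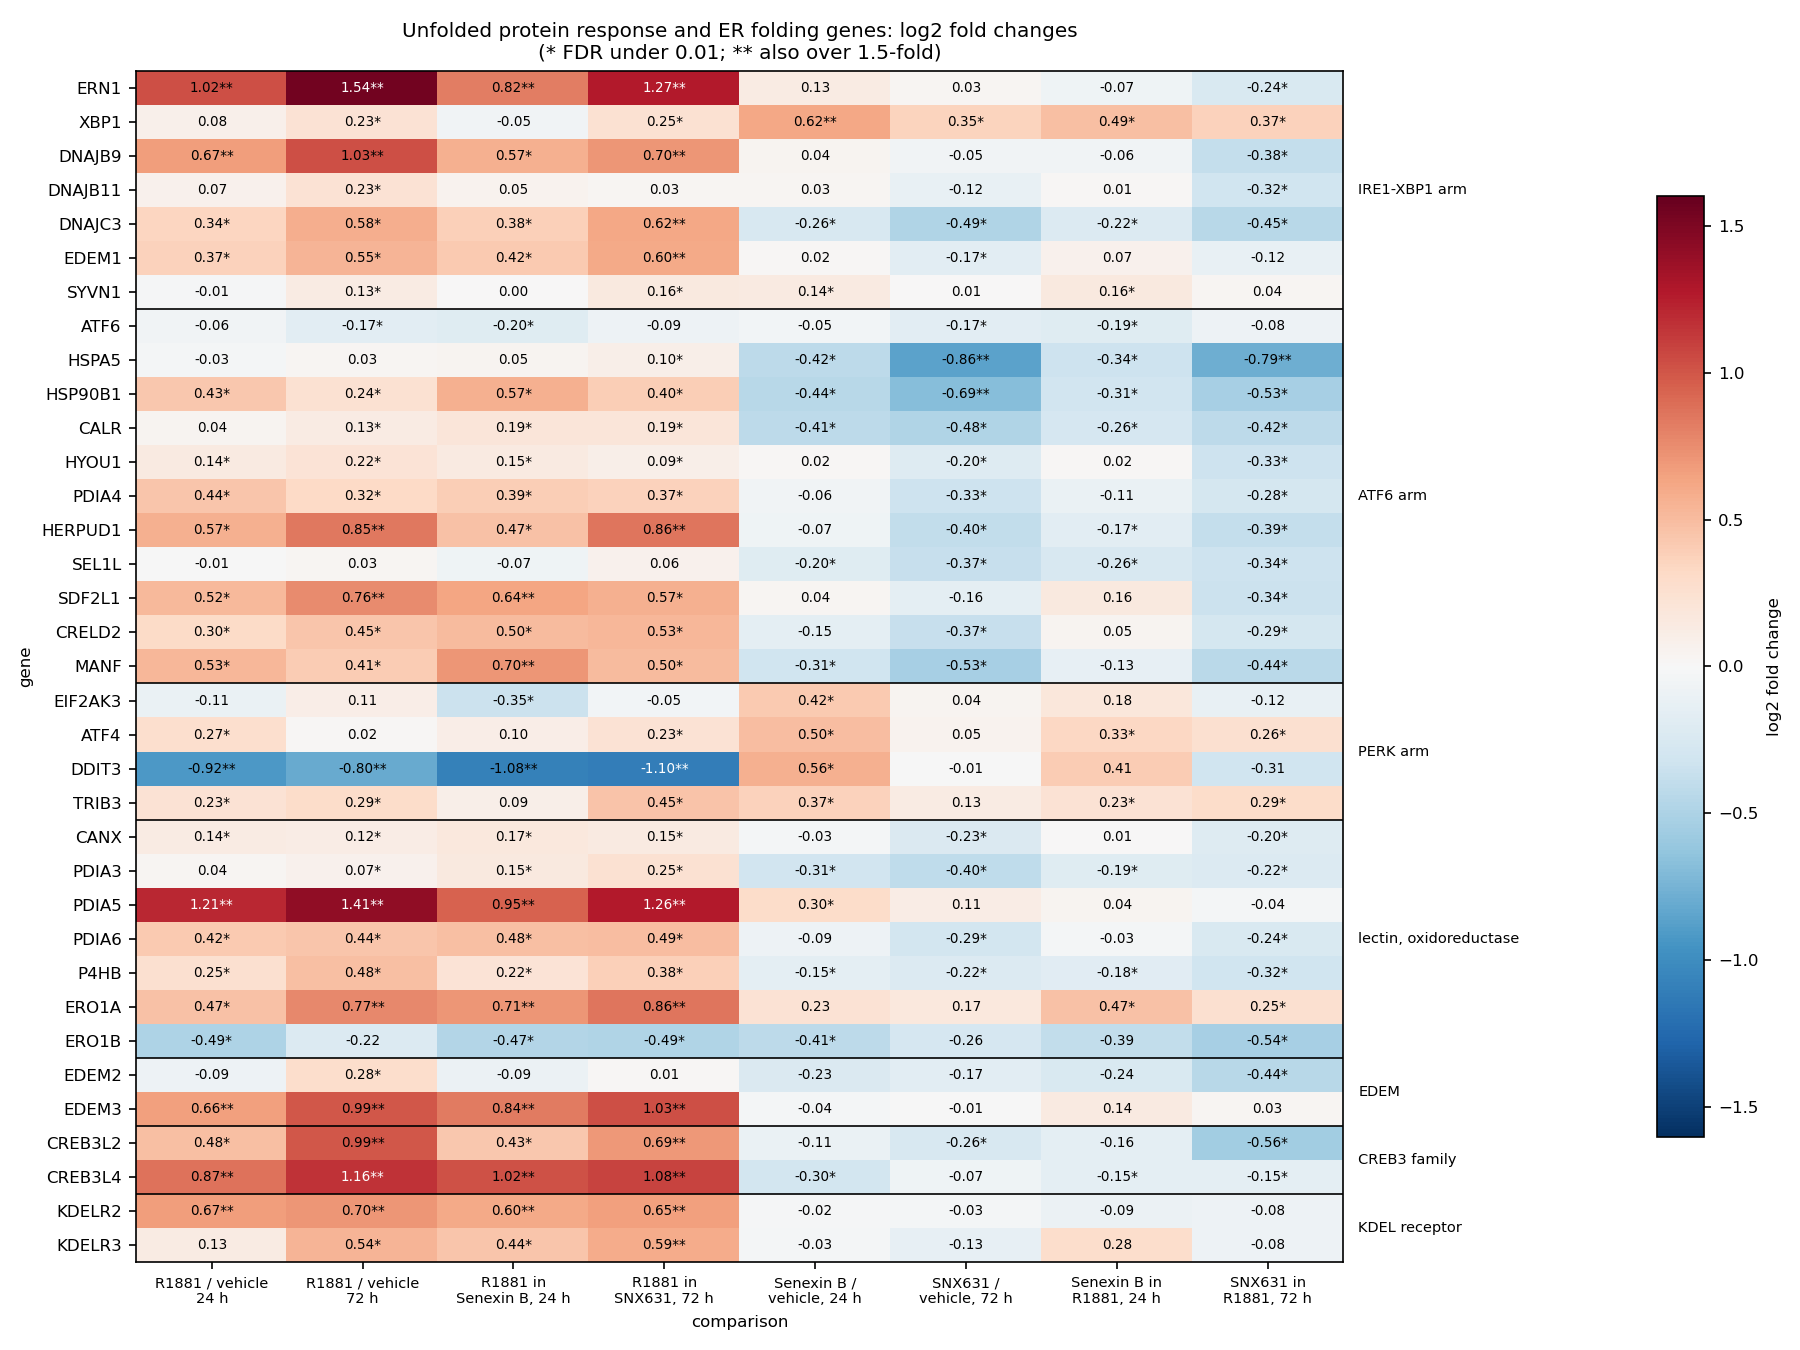
Log2 fold change of each of the 35 genes (rows, grouped by arm or role) in 8 comparisons (columns). One star marks an FDR under 0.01 and a pair of stars a fold change over 1.5 as well. The 4 androgen columns at the left are mostly positive, with DDIT3 as the strongest negative row, and the inhibitor columns at the right show HSPA5, HSP90B1 and CALR below 0 and XBP1 above 0 throughout.

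The PERK arm had the lowest median under R1881 in both experiments, while the IRE1-XBP1 and ATF6 medians lay close together at 24 h. The median log2 fold change was 0.34 for the 7 genes of the IRE1-XBP1 arm, 0.30 for the 11 of the ATF6 arm and 0.06 for the 4 of the PERK arm at 24 h, and 0.55, 0.24 and 0.07 at 72 h. Under scaling by library totals alone, the PERK median turned to -0.02 at 24 h and -0.04 at 72 h, the ATF6 median at 72 h fell to 0.14, and the IRE1-XBP1 medians were 0.26 and 0.45. On leaving out each library in turn, the 24 h medians ran from 0.33 to 0.35 for the IRE1-XBP1 arm and from 0.25 to 0.34 for the ATF6 arm. These ranges overlap. Of all genes tested, 26.3% met the FDR limit as higher and 22.1% as lower at 24 h, and 27.6% and 24.6% at 72 h. In the IRE1-XBP1 arm, 4 of 7 genes met the FDR limit as higher at 24 h and 7 of 7 at 72 h. The ATF6 arm had 7 of 11 and then 8 of 11 higher, with 1 lower at 72 h. In the PERK arm, 2 of 4 were higher and 1 lower at 24 h, and 1 was higher and 1 lower at 72 h. Genes of an arm are not replicates, so the medians are descriptions and were not tested against each other.

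In the IRE1-XBP1 arm, the sensor ERN1 had the largest androgen response. At 24 h, ERN1 was at 28.4, 25.8 and 23.8 CPM in vehicle, 27.7, 27.3 and 28.05 CPM with Senexin B, 54.6, 50.9 and 49.1 CPM with R1881, and 53.7, 45.0 and 47.9 CPM with both. At 72 h it was at 21.0, 20.1, 22.3 and 21.2 CPM in vehicle, 24.4, 19.7, 19.9 and 22.6 CPM with SNX631, 64.6, 60.6, 61.7 and 60.2 CPM with R1881, and 48.4, 56.3, 53.6 and 49.5 CPM with both. Every library with R1881 lay above every library without it in its experiment. ERN1 rose 2.04-fold at 24 h (log2 1.02 ± 0.065 SE, edgeR FDR 5.4e-15) and 2.92-fold at 72 h (log2 1.54 ± 0.059, FDR 1.3e-23). At 72 h, R1881 with SNX631 was lower than R1881 alone with no overlap (log2 -0.24 ± 0.049, edgeR FDR 7.3e-05).

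XBP1 mRNA, the substrate of IRE1, followed the inhibitors more than the androgen. At 24 h, XBP1 was at 138, 130.2 and 133 CPM in vehicle, 202, 209 and 202 CPM with Senexin B, 135, 147 and 139.5 CPM with R1881, and 204, 195 and 192 CPM with both. In the 72 h experiment it was at 155, 162, 156 and 159 CPM in vehicle, 192, 203, 202 and 209 CPM with SNX631, 183, 186, 194 and 178 CPM with R1881, and 234, 239, 242 and 242 CPM with both. The groups with inhibitor lay above their partners without it in all 4 pairings. XBP1 rose 1.53-fold with Senexin B (log2 0.62 ± 0.037, edgeR FDR 1.4e-14), which is just past the fold limit and fell just short of it under scaling by library totals (log2 0.58). It rose 1.40-fold with Senexin B in R1881-treated cells and 1.28-fold and 1.29-fold with SNX631 without and with R1881 (edgeR FDR 1.7e-11, 2.4e-12 and 2e-13). R1881 raised XBP1 at 72 h (log2 0.23 ± 0.030, edgeR FDR 2.5e-08), while at 24 h the difference was 0.08 with an interval of 0.00 to 0.15.

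Among the XBP1 targets, DNAJB9 (ERdj4, a co-chaperone of BiP) gave the clearest androgen response. At 24 h, DNAJB9 was at 11.5, 13.2 and 13.7 CPM in vehicle, 14.5, 12.9 and 13.03 CPM with Senexin B, 22.2, 22.1 and 18.4 CPM with R1881, and 21.3, 18.7 and 20.1 CPM with both. At 72 h the vehicle libraries held 14.97, 15.4, 15.4 and 17.2 CPM, those with SNX631 14.0, 15.3, 16.8 and 14.6 CPM, those with R1881 30.4, 31.3, 35.5 and 31.3 CPM, and those with both 21.7, 24.6, 24.9 and 27.6 CPM. No library without R1881 reached any library with it. DNAJB9 rose 1.59-fold at 24 h (log2 0.67 ± 0.085, edgeR FDR 4.2e-08) and 2.04-fold at 72 h (log2 1.03 ± 0.072, FDR 2.1e-15). SNX631 in R1881-treated cells lowered it 1.30-fold (log2 -0.38 ± 0.064, edgeR FDR 7.1e-06).

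The other XBP1 targets moved by less. DNAJC3 (P58IPK, a co-chaperone and PERK inhibitor) rose with R1881 by 0.34 and 0.58 on the log2 scale at 24 h and 72 h, and EDEM1, which passes misfolded glycoproteins to degradation, by 0.37 and 0.55. DNAJB11 (ERdj3) and SYVN1, the ubiquitin ligase of ER-associated degradation, rose by small amounts at 72 h, with log2 values of 0.23 and 0.13, and at 24 h had log2 values of 0.07 and -0.01 that did not pass. SYVN1 shares its strand and part of its span with FAU, a gene for a ribosomal protein precursor, so reads of these genes could have been shared in counting.

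**Figure D2:**
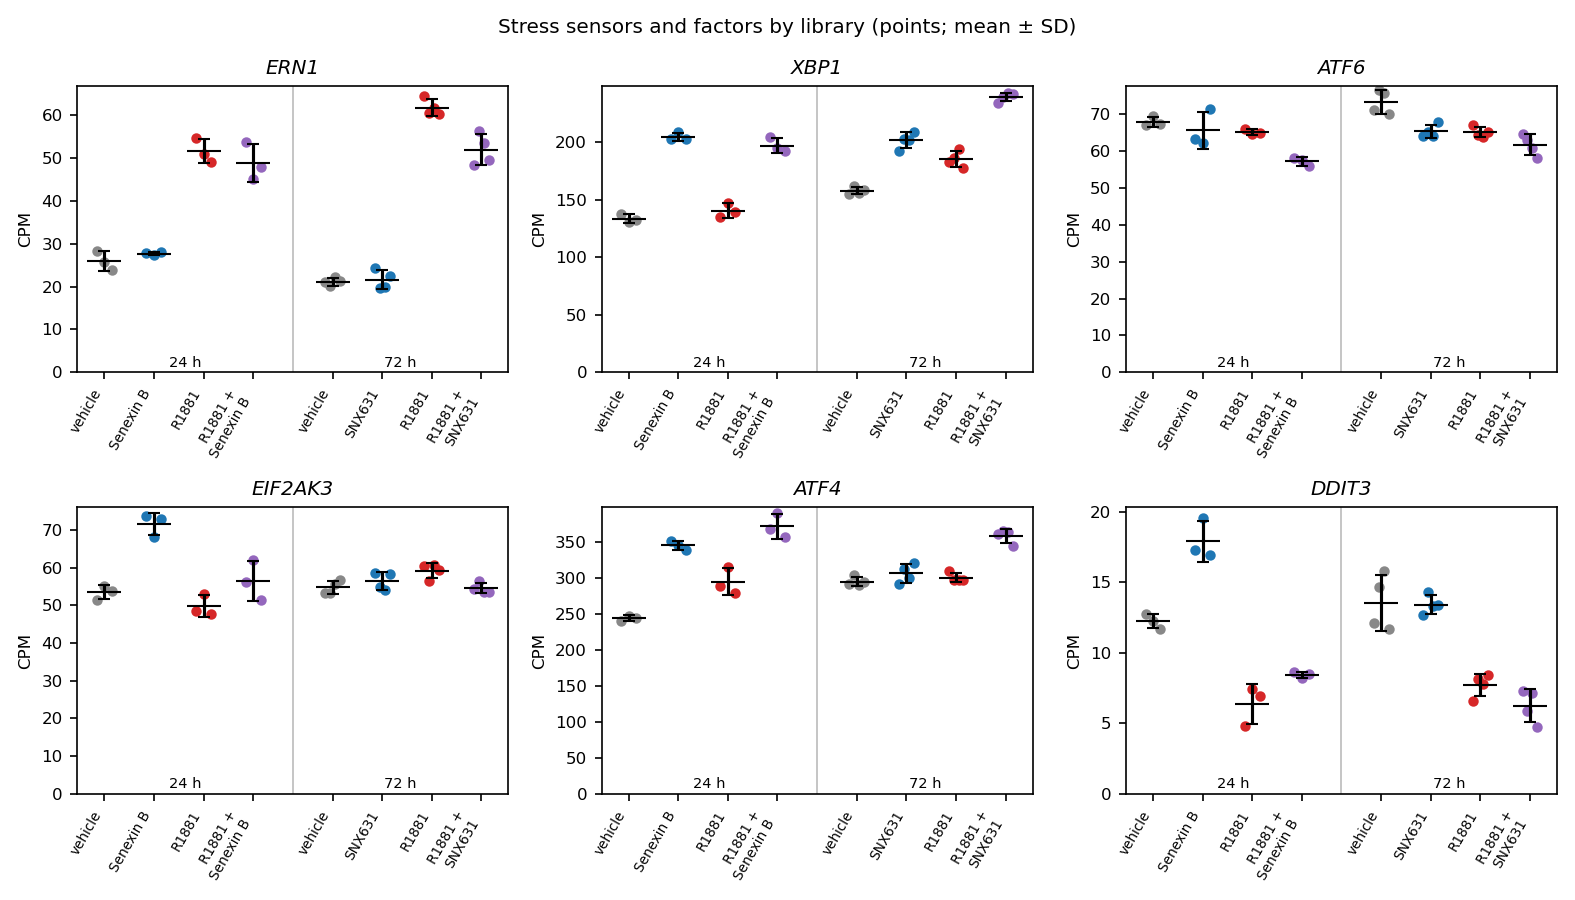
CPM of the stress sensors and factors in each library (points) with the mean and SD of each group (bars), linear axes from 0. ERN1 is high in every R1881 group and DDIT3 low in every R1881 group, XBP1 is high in the inhibitor groups, and ATF6 stays between 55.9 and 76.6 CPM in all 28 libraries.

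ATF6 mRNA varied little. At 24 h, it was at 67.1, 69.5 and 67.3 CPM in vehicle, 63.2, 62.2 and 71.3 CPM with Senexin B, 66.0, 64.6 and 64.9 CPM with R1881, and 58.1, 57.7 and 55.9 CPM with both. The 72 h levels were 71.2, 76.6, 75.8 and 70.2 CPM in vehicle, 64.2, 65.3, 64.2 and 68.0 CPM with SNX631, 67.2, 64.4, 63.9 and 65.1 CPM with R1881, and 64.8, 63.0, 60.8 and 58.3 CPM with both. The vehicle group at 72 h lay above the other 72 h groups. ATF6 fell by 0.17 on the log2 scale with R1881 at 72 h (SE 0.040, edgeR FDR 3e-04) and by 0.17 with SNX631 (FDR 0.00085), changes of 1.13-fold and 1.12-fold.

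HSPA5, which encodes BiP, the Hsp70 chaperone that holds the stress sensors inactive, had no androgen effect past the FDR limit against vehicle and was the gene most lowered by SNX631. At 24 h, HSPA5 was at 601, 647 and 620.4 CPM in vehicle, 456, 475 and 466 CPM with Senexin B, 604, 629.6 and 592 CPM with R1881, and 484, 475 and 487 CPM with both. After 72 h the gene was at 1025, 1069.6, 1059 and 1049.9 CPM in vehicle, 556, 589, 579.6 and 597 CPM with SNX631, 1055, 1066, 1082 and 1079 CPM with R1881, and 615, 622, 619 and 629 CPM with both. All libraries with inhibitor lay below all libraries without it in the same experiment. SNX631 lowered HSPA5 1.81-fold without R1881 (log2 -0.86 ± 0.021, edgeR FDR 2.3e-28) and 1.72-fold with it (log2 -0.79 ± 0.021, FDR 4.7e-27). Senexin B lowered it 1.34-fold and 1.26-fold (edgeR FDR 5.7e-12 and 1.3e-09). Against vehicle, R1881 gave log2 differences of -0.03 (interval -0.10 to 0.03) at 24 h and 0.03 (interval -0.01 to 0.07) at 72 h, the latter -0.08 under scaling by library totals alone.

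HSP90B1, which encodes the ER Hsp90 chaperone GRP94, responded to both treatments in opposite directions. At 24 h, HSP90B1 was at 705, 725 and 724 CPM in vehicle, 509.9, 538 and 536 CPM with Senexin B, 955, 966 and 982 CPM with R1881, and 780.4, 775 and 789 CPM with both. At 72 h the vehicle libraries held 1239, 1323, 1306 and 1299.9 CPM, those with SNX631 783, 798, 809 and 821 CPM, those with R1881 1506, 1523, 1554 and 1531 CPM, and those with both 1040.2, 1059, 1038 and 1087 CPM. No groups of an experiment overlapped in either set. R1881 raised HSP90B1 1.35-fold at 24 h and 1.18-fold at 72 h (edgeR FDR 3.2e-14 and 7.2e-13). SNX631 lowered it 1.61-fold without R1881 and 1.45-fold with R1881 (log2 -0.69 and -0.53, each ± 0.021, edgeR FDR 3.6e-25 and 6.7e-22), and Senexin B 1.36-fold and 1.24-fold (FDR 2.6e-13 and 1e-09).

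The remaining targets assigned to ATF6 fell into those raised by R1881 and those that were not. HERPUD1, an adaptor of ER-associated degradation, rose 0.57 and 0.85 (log2, 24 h and 72 h), SDF2L1, a BiP cofactor, 0.52 and 0.76, the secreted factor MANF 0.53 and 0.41, PDIA4 0.44 and 0.32, and CRELD2 0.30 and 0.45. HYOU1 (GRP170, a nucleotide exchange factor of BiP) rose by 0.14 and 0.22. CALR, at log2 0.04 and 0.13, met the FDR limit at 72 h, and SEL1L, the partner of SYVN1, at -0.01 and 0.03, did not at either time.

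The PERK arm gave the most mixed picture. EIF2AK3, the gene of PERK, was at 51.5, 55.1 and 53.8 CPM in vehicle at 24 h, 73.7, 68.2 and 72.9 CPM with Senexin B, 48.6, 53.0 and 47.6 CPM with R1881, and 56.1, 62.1 and 51.4 CPM with both. At 72 h it was at 53.3, 53.3, 55.8 and 56.7 CPM in vehicle, 58.6, 54.8, 54.0 and 58.2 CPM with SNX631, 60.5, 56.4, 60.6 and 59.3 CPM with R1881, and 54.5, 56.4, 53.5 and 53.6 CPM with both. The 24 h Senexin B group stood above all other libraries of either experiment. Senexin B raised EIF2AK3 1.34-fold in cells without R1881 (log2 0.42 ± 0.052, edgeR FDR 1.8e-07), and with R1881 the value was 0.18 (FDR 0.023).

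ATF4, the factor translated when eIF2α is phosphorylated, also stood higher with Senexin B. At 24 h, ATF4 was at 240.2, 247 and 244 CPM in vehicle, 351, 345 and 339 CPM with Senexin B, 289, 315 and 279 CPM with R1881, and 367, 390.0 and 356 CPM with both. In the 72 h experiment it was at 292, 304, 290.0 and 293 CPM in vehicle, 291, 312, 300.04 and 321 CPM with SNX631, 309, 297, 296 and 297 CPM with R1881, and 361, 365, 364 and 344 CPM with both. At 72 h the 4 libraries with both agents stood above the other 12. ATF4 rose 1.41-fold with Senexin B alone (log2 0.50 ± 0.038, edgeR FDR 4.7e-12) and 1.26-fold in R1881-treated cells (FDR 3.9e-08). With SNX631 it rose 1.20-fold in R1881-treated cells (edgeR FDR 5.7e-10), and without R1881 the log2 value was 0.05 (FDR 0.12).

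DDIT3, which encodes the pro-apoptotic factor CHOP, was the only one of the 35 genes called lower with R1881 in both experiments. At 24 h, DDIT3 was at 12.8, 12.3 and 11.7 CPM in vehicle, 17.3, 19.6 and 16.9 CPM with Senexin B, 4.78, 7.41 and 6.92 CPM with R1881, and 8.64, 8.22 and 8.51 CPM with both. The 72 h levels were 12.1, 14.7, 15.8 and 11.7 CPM in vehicle, 12.7, 14.3, 13.4 and 13.4 CPM with SNX631, 6.59, 8.12, 7.75 and 8.43 CPM with R1881, and 7.27, 5.86, 7.15 and 4.76 CPM with both. Libraries with R1881 lay below those without it in each experiment. DDIT3 fell 1.89-fold at 24 h (log2 -0.92 ± 0.12, edgeR FDR 4.2e-08) and 1.74-fold at 72 h (log2 -0.80 ± 0.11, FDR 5.1e-08). Senexin B raised it 1.48-fold (edgeR FDR 8.3e-06), just under the fold limit, and without vehicle replicate 1, Senexin B replicate 1 or Senexin B replicate 3 the log2 value was 0.59 to 0.61, past it. DDIT3 overlaps MARS and MBD6 on the opposite strand.

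TRIB3, a pseudokinase that is a target of ATF4 and CHOP, rose with R1881 by 0.23 and 0.29 (log2, 24 h and 72 h, edgeR FDR 0.00047 and 6.8e-06). ATF4 met the FDR limit with R1881 at 24 h (log2 0.27) and was at 0.02 at 72 h. ATF4, TRIB3 and DDIT3 therefore did not move together under R1881, though all 4 genes of the PERK arm met the FDR limit as higher with Senexin B alone.

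Among the disulfide-forming enzymes, PDIA5 stood out. At 24 h, PDIA5 was at 42.6, 46.4 and 44.9 CPM in vehicle, 53.4, 55.9 and 56.2 CPM with Senexin B, 100.3, 108 and 102 CPM with R1881, and 109, 108 and 102 CPM with both. After 72 h the gene was at 40.0, 46.1, 43.4 and 40.3 CPM in vehicle, 45.5, 46.4, 45.3 and 46.7 CPM with SNX631, 119, 113, 113 and 109 CPM with R1881, and 112, 109, 108 and 112 CPM with both. R1881 and no-R1881 libraries were far apart in both experiments. PDIA5 rose 2.31-fold at 24 h (log2 1.21 ± 0.046, edgeR FDR 6e-21) and 2.66-fold at 72 h (log2 1.41 ± 0.040, FDR 1.1e-27), the largest androgen effect of the 35 genes at 24 h. With Senexin B alone it rose 1.23-fold (edgeR FDR 1.3e-05).

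The other enzymes and lectins of this class were raised less. PDIA6 rose by 0.42 and 0.44 (log2, 24 h and 72 h) and P4HB, the classical protein disulfide isomerase, by 0.25 and 0.48. The ER oxidase ERO1A rose by 0.47 and 0.77, whereas its paralog ERO1B fell by 0.49 at 24 h and had a log2 value of -0.22 at 72 h (edgeR FDR 0.034). CANX, the membrane-bound lectin chaperone, rose by 0.14 and 0.12, and PDIA3, which works with CANX and CALR, was at 0.04 and 0.07. ERO1B overlaps GPR137B on the opposite strand and PDIA5 overlaps SEC22A on its own strand.

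EDEM3, which trims mannose from misfolded glycoproteins before their degradation, rose with R1881 whether or not inhibitor was present. At 24 h, EDEM3 was at 89.9, 85.9 and 87.7 CPM in vehicle, 90.8, 80.0 and 85.7 CPM with Senexin B, 143, 129 and 143 CPM with R1881, and 148, 151 and 158 CPM with both. At 72 h it was at 82.6, 83.7, 88.3 and 83.5 CPM in vehicle, 87.1, 78.9, 84.4 and 86.4 CPM with SNX631, 171, 169.8, 171 and 159 CPM with R1881, and 175, 174, 175 and 162 CPM with both. Libraries without R1881 never exceeded 90.8 CPM. EDEM3 rose 1.58-fold at 24 h (log2 0.66 ± 0.045, edgeR FDR 2.8e-14; log2 0.58 and short of the fold limit under scaling by library totals) and 1.98-fold at 72 h (log2 0.99 ± 0.036, FDR 3.4e-24). EDEM2, the related enzyme, had log2 values of -0.09 at 24 h and 0.28 at 72 h and met the FDR limit at 72 h.

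CREB3L4 and CREB3L2 belong to the CREB3 family of membrane-anchored factors, which are released from the Golgi like ATF6 and drive secretory genes. CREB3L4 at 24 h was at 60.3, 60.4 and 59.0 CPM in vehicle, 49.7, 49.5 and 46.6 CPM with Senexin B, 103, 116 and 109 CPM with R1881, and 103, 95.2 and 97.5 CPM with both. In the 72 h experiment it was at 59.9, 66.5, 60.6 and 64.8 CPM in vehicle, 60.6, 57.0, 59.1 and 63.7 CPM with SNX631, 143, 141, 141 and 138 CPM with R1881, and 129.5, 131, 123 and 123 CPM with both. R1881 separated the libraries of each experiment without overlap. CREB3L4 rose 1.83-fold at 24 h (log2 0.87 ± 0.045, edgeR FDR 2.4e-17) and 2.23-fold at 72 h (log2 1.16 ± 0.038, FDR 7.5e-26). It overlaps SLC39A1 and JTB on the opposite strand. CREB3L2 rose by 0.48 and 0.99 on the log2 scale, and with SNX631 in R1881-treated cells it fell by 0.56 (SE 0.045, edgeR FDR 5.6e-13).

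KDELR2, a receptor that returns escaped ER chaperones from the Golgi, was the most abundant per kilobase of the KDEL receptors in the list. At 24 h, KDELR2 was at 155, 153 and 157 CPM in vehicle, 146, 154 and 157 CPM with Senexin B, 242, 256 and 241 CPM with R1881, and 235, 233 and 226 CPM with both. The 72 h levels were 170.4, 162, 164 and 161 CPM in vehicle, 170.0, 158, 159 and 156 CPM with SNX631, 265, 264, 271 and 267 CPM with R1881, and 253, 252, 254 and 251 CPM with both. The level with R1881 was above that without it in every library of each experiment. KDELR2 rose 1.59-fold at 24 h and 1.63-fold at 72 h (log2 0.67 ± 0.036 and 0.70 ± 0.027, edgeR FDR 5.4e-17 and 2.6e-23). KDELR3 was at log2 0.13 at 24 h (FDR 0.35) and rose by 0.54 at 72 h (edgeR FDR 0.00039). KDELR2 overlaps DAGLB on its own strand and KDELR3 overlaps DDX17 on the opposite one.

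**Figure D3:**
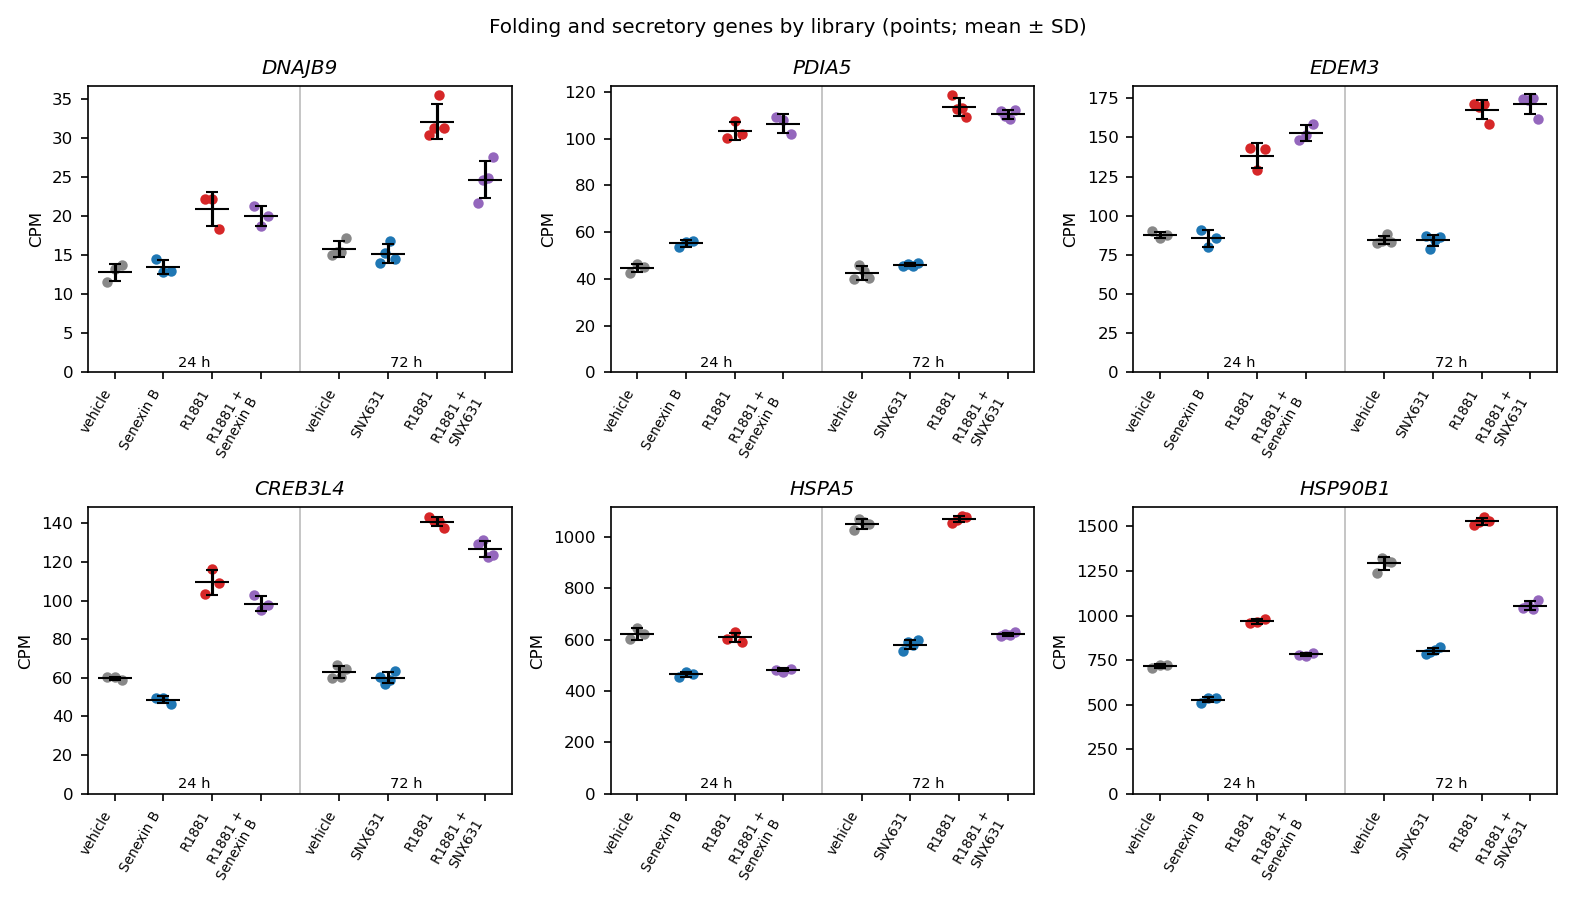
CPM of DNAJB9, PDIA5, EDEM3, CREB3L4, HSPA5 and HSP90B1 in each library (points) with the mean and SD of each group (bars), linear axes from 0. The first 4 genes separate by R1881, HSPA5 separates by inhibitor, and HSP90B1 shows both separations.

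The inhibitor comparisons asked how CDK8 and CDK19 inhibition shifts these genes without and with androgen. The doses and times of the compounds differ, so their values stand side by side and were not compared. With Senexin B alone, 1 gene was called, XBP1 (3.79% of all genes in either direction), and 7 were higher and 10 lower by the FDR limit alone (13.5% and 11.7%). The called count became 2 without vehicle replicate 1, Senexin B replicate 1 or Senexin B replicate 3. In R1881-treated cells, edgeR and DESeq2 called 0 of the 35 genes for Senexin B (3.12% of all genes). By the FDR limit 5 were higher and 10 lower (12.7% and 9.99%), with 3 higher when R1881 replicate 3 was left out. In edgeR 26 had an unadjusted p under 0.05. The share of all genes under that unadjusted limit was not computed for this or any other comparison. SNX631 alone called 2 genes lower, HSPA5 and HSP90B1 (4.77% of all genes in either direction), with 1 higher and 17 lower by the FDR limit (14.4% and 12.5%). SNX631 in R1881-treated cells called HSPA5 (4.12%), with 4 higher and 22 lower by the FDR limit (17.8% and 15.4%), and 2 genes were called without replicate 2 of R1881 with SNX631.

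Of the 17 genes lower by the FDR limit with SNX631 alone, 10 were in the ATF6 arm. Of the 22 lower with SNX631 in R1881-treated cells, 10 were in it. All 11 genes of the ATF6 arm had log2 values below 0 with SNX631, without and with R1881. By the FDR limit, 10 of 11 were lower without R1881 and 10 of 11 with it, beside 12.5% and 15.4% of all genes. The median log2 fold changes of the arm were -0.37 and -0.35. Senexin B gave 5 and 6 of 11 lower by the FDR limit (11.7% and 9.99% of all genes), with medians of -0.15 and -0.17. The IRE1-XBP1 arm had medians of -0.05 and -0.25 with SNX631 and of 0.04 and 0.01 with Senexin B. The PERK arm had medians of 0.05 and 0.07 with SNX631 and of 0.46 and 0.28 with Senexin B. With SNX631 alone 0 of its 4 genes met the FDR limit in edgeR and 1 had an unadjusted p under 0.05, and in R1881-treated cells 2 of 4 were higher while DDIT3 and EIF2AK3 had log2 values of -0.31 and -0.12 that did not pass. Genes outside the arms also fell with SNX631. Of the 7 lectins and oxidoreductases, 4 were lower by the FDR limit without R1881 and 5 with it, with medians of -0.23 and -0.22. The medians without and with R1881 were -0.16 and -0.36 for the CREB3 family, -0.09 and -0.20 for EDEM2 and EDEM3, and -0.08 and -0.08 for the KDEL receptors. The median over all genes stood between -0.01 and 0.01 in these comparisons.

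CALR, DNAJC3, HSP90B1, HSPA5, P4HB, PDIA3 and SEL1L met the FDR limit as lower in all 4 inhibitor comparisons, and XBP1 as higher in all 4. CALR, which has an ER stress element in reversed orientation, fell by 0.41 and 0.26 (log2) with Senexin B without and with R1881, and by 0.48 and 0.42 with SNX631. MANF fell by 0.31 with Senexin B and by 0.53 and 0.44 with SNX631, and with Senexin B in R1881-treated cells stood at log2 -0.13 (edgeR FDR 0.037). Within each compound, the comparison without R1881 and the one with R1881 use separate libraries. For SNX631, 15 genes were lower in both, 1 was higher in both and 0 went in opposite directions past the FDR limit. For Senexin B these counts were 8, 4 and 0. The shares of all genes that met the limit in both comparisons of a compound, or in all 4, were not computed. Whether this agreement is particular to these genes is therefore not known.

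Of the 8 genes with an ER stress element in the promoter window, 6 were lower with SNX631 alone (HSPA5, HSP90B1, CALR, CRELD2, CANX and PDIA6) and 1, XBP1, was higher by the FDR limit, where 12.5% of all genes were lower and 14.4% higher. Of all 35 genes, 17 were lower with SNX631 alone, so genes without the element were lowered too. In R1881-treated cells 7 of the 8 were lower with SNX631 (15.4% of all genes, and 22 of the 35) and XBP1 was again higher. With Senexin B alone, HSPA5, HSP90B1, CALR and ERO1B were lower (11.7% of all genes, and 10 of the 35) and XBP1 higher. With Senexin B in R1881-treated cells, HSPA5, HSP90B1 and CALR were lower (9.99% of all genes, and 10 of the 35) and XBP1 higher. XBP1 was the only one of the 8 that was higher by the FDR limit in these comparisons. The match says nothing of what bound there, and a role of the element was not tested.

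**Figure D4:**
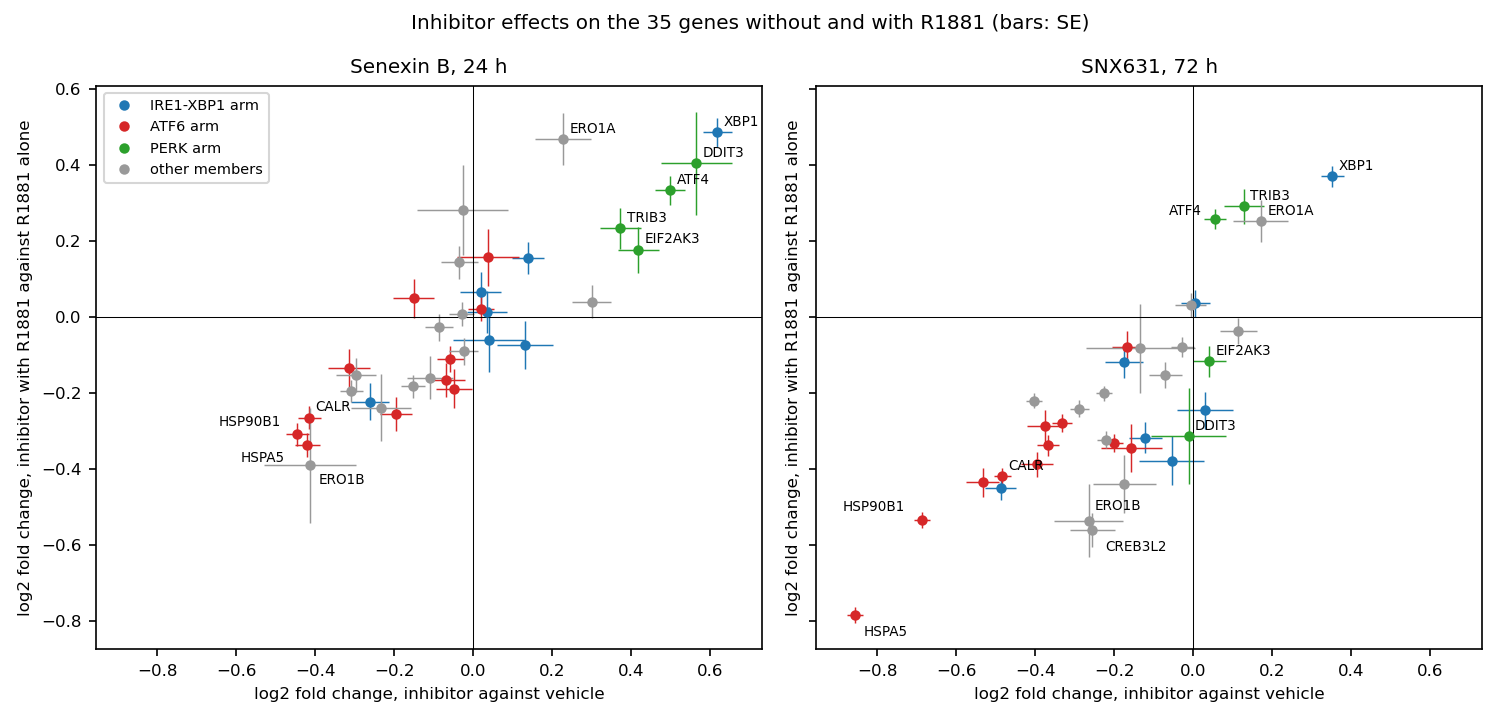
Log2 fold change of the 35 genes with inhibitor against vehicle (horizontal axis) and with inhibitor and R1881 against R1881 alone (vertical axis), for Senexin B at 24 h and SNX631 at 72 h, with bars of 1 SE. Colors mark the arms. ATF6-arm genes such as HSPA5 and HSP90B1 lie at the lower left, XBP1 at the upper right, and the PERK-arm genes to the right of 0 for Senexin B.

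Together the 35 genes took 0.676 ± 0.0029% (SD, n = 3) of the counts in vehicle cells at 24 h, 0.591 ± 0.0034% with Senexin B, 0.750 ± 0.0078% with R1881 and 0.674 ± 0.0035% with both. At 72 h the shares were 0.867 ± 0.010% (n = 4) in vehicle, 0.654 ± 0.010% with SNX631, 0.968 ± 0.0047% with R1881 and 0.759 ± 0.0076% with both. The share was higher with R1881 and lower with inhibitor in each experiment, with no overlap between the groups compared, and no test was run on it.

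The interaction terms asked whether the androgen effect depended on the inhibitor. At 24 h, edgeR and DESeq2 called 0 of 35 for the interaction of R1881 and Senexin B (0.577% of all genes), and 0 met the FDR limit alone in edgeR (2.09%), with 13 at an unadjusted p under 0.05. At 72 h, both tools called 0 for the interaction of R1881 and SNX631 (1.19%), with 16 at an unadjusted p under 0.05, and 5 met the FDR limit alone (7.09%). The counts by unadjusted p have no share of all genes beside them and are not read as a result. The androgen effect was larger with SNX631 present for HSP90B1 (0.40 against 0.24, log2), PDIA3 (0.25 against 0.07) and ATF4 (0.23 against 0.02), and smaller for CREB3L2 (0.69 against 0.99) and HYOU1 (0.09 against 0.22). The edgeR FDR of these differences was 0.00032, 9.8e-06, 0.00025, 0.0028 and 0.0083.

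The androgen effects of the experiments were compared in a fit of all 28 libraries. No gene of the 35 was called by edgeR or DESeq2 for R1881 at 72 h minus R1881 at 24 h (0 of 35, 1.88% of all genes), and 9 met the FDR limit alone (7.54%). In edgeR 24 had an unadjusted p under 0.05, a count without a share of all genes beside it. The called count became 1 without vehicle replicate 3 at 24 h, the library with the highest total. The log2 difference was 0.52 for ERN1 and for CREB3L2, 0.34 for EDEM3, 0.29 for HERPUD1 and CREB3L4, and 0.24 for DNAJC3 and P4HB. It was -0.18 for HSP90B1 and -0.24 for ATF4. The larger androgen effects at 72 h therefore included 2 genes of the IRE1-XBP1 arm and both CREB3 family members, while the dose of R1881 was also higher at 72 h.

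A wider list of 47 genes from the same pathways, of which 46 were tested, held 7 called higher and 0 called lower with R1881 at 24 h (9.81% and 9.19% of all genes), and 8 and 0 at 72 h (9.7% and 10.1%). At 24 h, 26 met the FDR limit as higher and 5 as lower (26.3% and 22.1% of all genes), and at 72 h these were 28 and 4 (27.6% and 24.6%). Among its XBP1 targets for translocation and signal processing, 10 of 13 genes were higher at the early time and 13 of 13 at the late one, with medians of 0.31 and 0.37 on the log2 scale. SPCS3, a subunit of the signal peptidase, rose 1.63-fold and 1.72-fold, and UBE2J1, a ubiquitin-conjugating enzyme of ER-associated degradation, 1.69-fold and 2.11-fold (24 h and 72 h). VLDLR, a lipoprotein receptor induced by ATF4, rose 1.96-fold and 2.54-fold. DERL3, of the derlin family of the ER degradation channel, rose 5.59-fold and 1.72-fold from 0.634 and 1.77 CPM. These 4 were the genes of the wider list called in both experiments, and the share of all genes called in both was not computed.

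Among the integrated stress response genes of the wider list, R1881 left 8 of 15 higher and 3 lower by the FDR limit at 24 h (26.3% and 22.1% of all genes). At 72 h these were 6 and 2 (27.6% and 24.6%), and the medians were 0.26 and 0.05. With Senexin B alone the 15 genes held 4 higher and 1 lower by the FDR limit (13.5% and 11.7% of all genes), and with SNX631 alone 2 higher and 3 lower (14.4% and 12.5%). The 12 degradation genes of the list held 7 higher and 1 lower by the FDR limit with R1881 at either time, beside the same shares of all genes.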

How the data were processed

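Expected counts per gene were deposited by the authors as a single table (fractions arise where reads are shared between genes or places, in 16.9% of values above 0), and these were rounded to whole counts. The submitters' processing notes name FastQC, cutadapt 2.8, STAR 2.7.2b and featureCounts of Subread 2.0.3, with GRCh38.p13 and GRCm39. The library kit was directional, and the annotation release and use of strand are not given in the sources used here. The 2 entries that are not human genes held 0 counts and were left out.

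Each experiment was fitted alone with edgeR 4.0.16 under R 4.3.3 (quasi-likelihood F test, TMM, filterByExpr with minimum count 10 and total 15), with Benjamini-Hochberg adjustment over all genes tested. Interactions were contrasts of the same fit, and the experiments were compared in a fit of all 28 libraries. Calls needed an FDR under 0.01 and a fold over 1.5, the limits of the study; the count by the FDR limit alone was added after seeing the data. SEs were worked back from the edgeR F statistic, as the absolute log2 fold change over the square root of F. The 95% intervals are the log2 value plus or minus 1.96 of these SEs. Groups come from the sample labels, which describe biological replicates. All replicate pairs differed beyond sampling noise. The common biological coefficient of variation was 2.72% at 24 h and 2.38% at 72 h. Depth was 9846595 to 33809419 counts per library, and the floor of 3 counts covers counting error only.

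Members, arms and the wider list were chosen with earlier results of these data known, and the arms follow textbook roles. Genes given in every library were the sensors and factors of the arms and each member called alike for R1881 in both experiments, for an inhibitor or for an interaction; the rest were given by log2 values, chosen for naming after their values were seen. Exon lengths and overlaps come from GENCODE 29 (35 of 35 matched). Alternatives were DESeq2 1.42.0 (size factors or Wald test), library totals, no filter, other limits, a replicate block, 1 fit of all libraries and leaving out each library. Scripts were tested on simulated data. Figures used matplotlib 3.10.9 in Python 3.11.15.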

Additional observations from a re-analysis of the deposited data

Results flagged for a closer look

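The androgen effect differed with SNX631 present, by the interaction term of edgeR at 72 h, for HSP90B1 (log2 difference 0.15), HYOU1 (-0.13), ATF4 (0.20), PDIA3 (0.18) and CREB3L2 (-0.30).

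The androgen effect of the 72 h experiment differed from that of the 24 h experiment, by a contrast of 1 fit, for ERN1 (log2 difference 0.52), DNAJC3 (0.24), HSP90B1 (-0.18), HERPUD1 (0.29), ATF4 (-0.24), P4HB (0.24), EDEM3 (0.34), CREB3L2 (0.52) and CREB3L4 (0.29).

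Single libraries stood apart from the others of their group in 4 of 52 groups of 4 libraries tested by Dixon's criterion over the 13 genes given in every library, where chance gives about 1 in 20. DNAJB9 in R1881 replicate 3 at 72 h was at 35.5 CPM, with the others between 30.4 and 31.3. ATF4 in R1881 replicate 1 at 72 h was at 309 CPM, with the others between 296 and 297. EDEM3 was at 159 CPM in R1881 replicate 4 (others 169.8 to 171) and at 162 CPM in replicate 4 of R1881 with SNX631 (others 174 to 175).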

How the results depend on the processing

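DESeq2 size factors, no filter on low counts, a replicate block and 1 fit of all libraries moved no count of genes and no arm median beyond the set margin. The block left the called counts at 7, 9, 1, 0 and 0 at 24 h and 11, 13, 2, 1 and 0 at 72 h, and 0 for the difference between experiments. Deviations of same-numbered libraries correlated between -0.0145 and 0.0666 at 24 h and between -0.0677 and 0.073 at 72 h, so the numbers were not treated as pairs. With an FDR under 0.05 and no fold limit, more members passed, since the limit is looser. At 24 h they numbered 24 for R1881 and 28 for R1881 with Senexin B. Senexin B without and with R1881 gave 20 and 24, and the interaction gave 2. The counts at 72 h, with SNX631 as the inhibitor, were 32, 31, 21, 30 and 9 in the same order. The difference between experiments gave 16. The share of all genes past this looser limit was not computed. These counts therefore have no background beside them and are not read as a result.

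Scaling by library totals alone moved the median of all genes to -0.116 for R1881 and -0.122 for R1881 with SNX631 at 72 h, and the split of all called genes from 1559 higher and 1626 lower to 1299 and 2121, and from 1619 and 1924 to 1311 and 2435. Relative to that shift the arms kept their order. At 24 h the splits were 1356 and 1811, and 1401 and 1756. Called members became 0 for Senexin B and 2 for SNX631 with R1881, and members lower by the FDR limit became 4 for R1881 at 24 h, 4 at 72 h and 4 for R1881 with SNX631 (1 for R1881 at 24 h under the DESeq2 Wald test). The R1881 medians became 0.26 (IRE1-XBP1), 0.23 (ATF6) and -0.0183 (PERK, reversed) at 24 h, and 0.45, 0.14 and -0.0353 (PERK, reversed) at 72 h. Log2 values that changed sign were XBP1 for R1881 at 24 h (-0.00124), HSPA5 for R1881 with Senexin B (-0.026), R1881 at 72 h (-0.075) and R1881 with SNX631 (-0.011), ATF4 for R1881 at 72 h (-0.078) and EDEM3 for SNX631 with R1881 (-0.000936). With no filter EDEM3 for SNX631 was 0.00157. The causes were not tested.

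Leaving out each library in turn gave 1 to 2 calls for Senexin B, 1 to 2 for SNX631 with R1881 and 0 to 1 for the difference between experiments. By the FDR limit it gave 1 to 2 lower for R1881 at 24 h (1 without R1881 replicate 2), 2 to 4 lower for R1881 with Senexin B (2 without Senexin B replicate 3 or replicate 3 of both agents) and 3 to 7 higher for Senexin B with R1881 (3 without R1881 replicate 3). The ATF6 median for R1881 at 24 h ran from 0.25 to 0.34. Values near 0 that changed sign ranged from -0.033 to 0.0743 for ERN1 with SNX631, -0.0179 to 0.111 for DNAJB9 with Senexin B, -0.0501 to 0.000844 for HSPA5 with R1881 at 24 h, -0.0794 to 0.0643 for DDIT3 with SNX631, -0.0816 to 0.0166 for EDEM3 with Senexin B, -0.0248 to 0.025 for EDEM3 with SNX631 and -0.0411 to 0.00972 for KDELR2 with Senexin B. None of these passed the FDR limit in the main comparison.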
